A study of Mus musculus with 6 samples.

Results

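The genes described here are 40 imprinted genes of the mouse, chosen by name from well-known imprinted clusters with earlier results of these data known. All 40 have a row among the 19713 genes of the deposited table. Of these, 38 reached 10 normalized counts in 2 or more of the 6 libraries and were tested, while Snrpn and Slc22a3 were too low. They lie in 16 clusters, of which 20 genes are known to be expressed from the paternal allele, 19 from the maternal allele and 1, Gnas, from either allele depending on the isoform. RNA was sequenced from mouse embryonic stem cells of 3 genotypes with 2 libraries each, numbered replicate 1 and replicate 2. Wild-type cells (WT) were compared with cells carrying Thap1 C54Y on both alleles (C54Y), a missense change in the DNA-binding zinc finger of the transcription factor THAP1, and with THAP1 -/- cells (KO), in which exon 2 of Thap1 is deleted. All lines came from C57Bl/6 blastocysts and were kept on irradiated mouse embryonic fibroblasts in medium with serum and leukemia inhibitory factor at 1000 units per ml. The labels do not say whether a genotype is 1 clone or several, nor what separates replicate 1 from replicate 2, so p-values measure only the spread between these libraries.

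Imprinted genes are transcribed mainly from the allele inherited from 1 parent, because a control region of each cluster carries DNA methylation from only the egg or the sperm. In the early embryo the KRAB zinc finger protein ZFP57 with TRIM28 and the maintenance methyltransferase DNMT1 keep these marks, and in cultured embryonic stem cells they are known to be less stable than in the embryo. Many of the genes act on growth of the fetus and placenta, among them the growth factor Igf2, its clearance receptor Igf2r, the insulin receptor adaptor Grb10 and the cell cycle inhibitor Cdkn1c. The cells are of an inbred strain and the table counts reads per gene, so the levels below are sums over both alleles and do not show which allele was transcribed. For several genes, imprinting is known only in certain tissues, such as neurons for Ube3a and placenta for Slc22a3.

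Recovered reads ranged from 31774656 to 46772996 per library, and 17061 to 18481 genes had reads. The preribosomal transcript Rn45s made up 0.472% to 0.6% of the reads of replicate 1 libraries, beside 1.49% to 2.05% for replicate 2. Thap1 itself had 432.5 and 701.3 normalized counts (reads divided by a library size factor) in WT, 2253 and 2533 in C54Y, with 1975 and 1687 in KO. Thap1 was therefore higher in every mutant library than in WT (1.72 ± 0.22 on the log2 scale in KO, adjusted p = 0.0018). Since reads of all exons are summed, this value does not check the genotypes. All 14 markers of embryonic stem cells had reads in every library. Of 24 fibroblast genes, which feeder cells would bring, 22 or 23 had reads in every library, with summed levels of 8114 to 22853 in replicate 1 and 46893 to 54267 in replicate 2, and Lum and Fap were at or near 0.

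Between KO and WT, 11 imprinted genes fell and 4 rose out of 38 tested, and 23 did not pass the threshold of an adjusted p of 0.05. Igf2, Airn, Nnat and Grb10 fell most, and Peg12 and Dio3 rose most. Airn passed the filter only through WT and C54Y libraries, so its fall is a description. The 15 calls, Airn included, made up 39.5% of the tested imprinted genes, beside 16.3% of all 15287 tested genes. The imprinted genes were chosen with earlier results of these data known. This share and those below may reflect that choice, which was not tested. Over all tested genes 8.9% were called up and 7.41% down. With TMM factors 2 imprinted genes rose and 11 fell. Of the calls over all genes, 44.8% were up with TMM factors and 54.6% without them. The median log2 fold change was -0.22 for the imprinted genes and 0.03 for all genes. Between C54Y and WT, 3 imprinted genes fell (Peg10, Mest and Cdkn1c) and 0 rose, or 7.89% called, beside 1.36% of all genes (0.962% up and 0.399% down). These 3 were also among the genes that fell in KO, although both comparisons use the same WT libraries. Between KO and C54Y, Grb10 alone was called (2.63%), and it was lower in KO. Over all genes this comparison called 0.19%, with 0.0458% up and 0.144% down.

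These calls come from a model with the replicate number as a block, which compares the genotypes within each replicate. Without the block limma called 0 imprinted genes, and 0 of all tested genes, in each of the 3 comparisons. At an unadjusted p under 0.05, limma without the block gave 6 imprinted genes (KO against WT), 1 (C54Y against WT) and 2 (KO against C54Y). Leaving out WT replicate 2 reduced the calls between KO and WT to 8. For C54Y against WT the count fell to 0 without C54Y replicate 2 and to 1, a different gene, without WT replicate 2. Without WT replicate 1 it came to 8, and without the KO library of replicate 1 or 2 to 15 or 14. For KO against C54Y it came to 9 without WT replicate 1, 5 without WT replicate 2, 4 without KO replicate 1, 2 without C54Y replicate 2 and 12 without KO replicate 2. Over all tested genes the number of calls moved in the same direction as that of the imprinted genes in each of these fits. Between KO and C54Y, Grb10 kept its call with each of the 6 libraries left out.

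**Figure D1:**
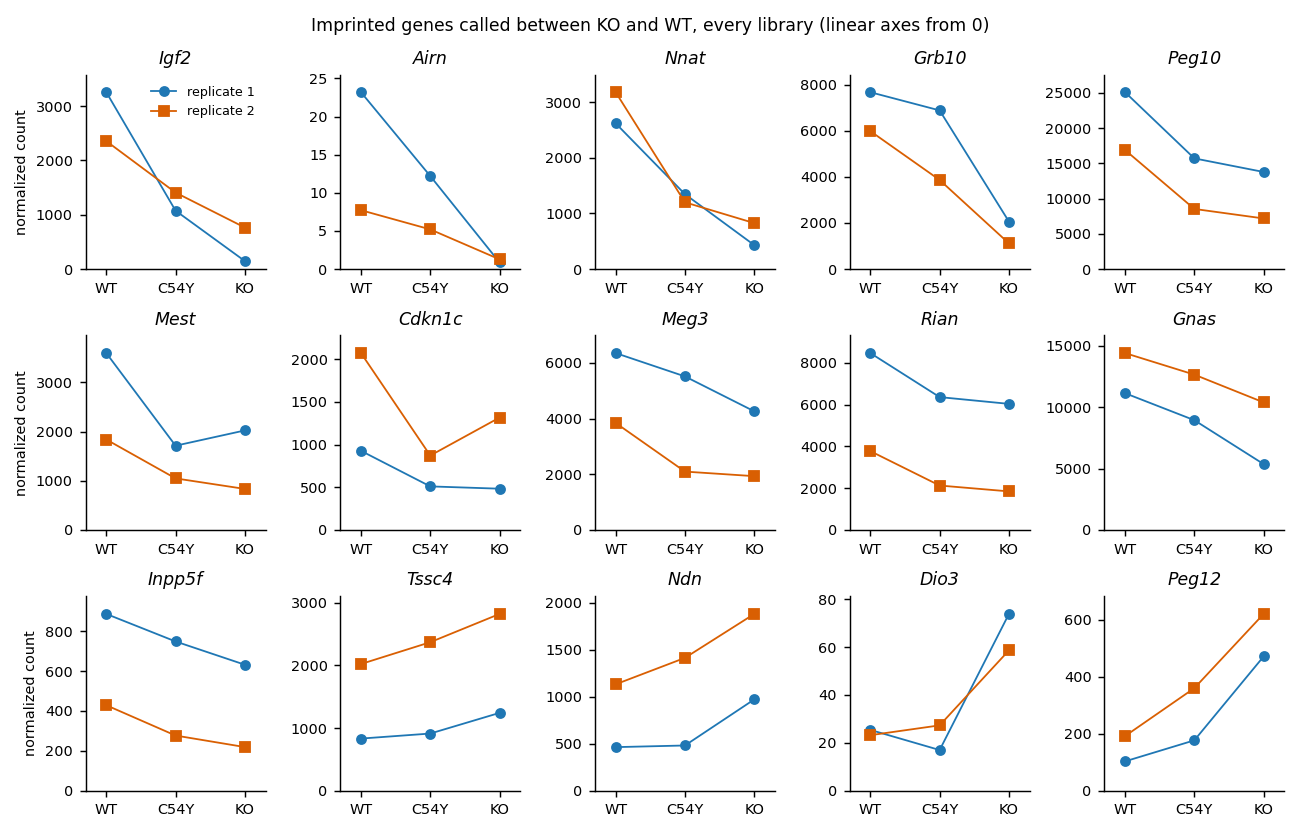
Normalized counts (linear axes from 0) of the 15 imprinted genes called between KO and WT, by genotype, with 1 point per library and a line joining the libraries of 1 replicate. Grb10 drops from 7675 and 5985 in WT to 2060 and 1112 in KO, and Peg12 climbs from 103.1 and 191.7 to 470.8 and 619.9.

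Grb10 encodes an adaptor that binds the insulin and IGF receptors and restrains growth, and is expressed from the maternal allele in most tissues and from the paternal allele in neurons. Its normalized counts were 7675 and 5985 in WT, 6885 and 3865 in C54Y, with 2060 and 1112 in KO, in the order replicate 1 and replicate 2. Both KO libraries lay below all 4 others. The mean was 6830 ± 1195 in WT (SD, n = 2), 5375 ± 2135 in C54Y and 1586 ± 669.7 in KO. The log2 fold change was -2.16 ± 0.17 in KO (SE, adjusted p = 0.000251), with -1.9 and -2.43 within the replicates. For C54Y it was -0.39 ± 0.17, which was not called (adjusted p = 0.379). The direct difference of KO from C54Y was -1.77 ± 0.17 (adjusted p = 0.0161), and the within-replicate differences of -1.74 and -1.79 were close to each other. Genes beside Grb10 moved the other way in KO. Its nearest tested neighbours are Cobl, an actin nucleator, which rose by 1.30 (adjusted p = 0.00237), and 1700042O10Rik, which rose by 1.59 (adjusted p = 0.0466). Ddc, an enzyme of dopamine and serotonin synthesis that shares the imprinted domain, had 200.2 and 355.2 normalized counts in WT and 525.5 and 902.4 in KO (1.36 ± 0.20, adjusted p = 0.00348).

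The promoters of Grb10, Nnat and Peg12 are shown because these 3 genes had the lowest adjusted p among the imprinted genes in KO that fell (Grb10 and Nnat) or rose (Peg12). Each is 300 bases from RefSeq on GRCm38.p6, not the mm9 build of the reads, from 250 bases before to 50 after an annotated start, written 5′ to 3′ on the gene's strand. Capitals mark matches on either strand to TNNGGCA, the core of the sequence that the THAP1 zinc finger is known to bind. Grb10 has 2 such windows, at chr11:12037371-12037670 and chr11:12027922-12028221 on the minus strand. Nnat has the window chr2:157559828-157560127 on the plus strand, and Peg12 the window chr7:62464461-62464760 on the minus strand.
Grb10, upstream start: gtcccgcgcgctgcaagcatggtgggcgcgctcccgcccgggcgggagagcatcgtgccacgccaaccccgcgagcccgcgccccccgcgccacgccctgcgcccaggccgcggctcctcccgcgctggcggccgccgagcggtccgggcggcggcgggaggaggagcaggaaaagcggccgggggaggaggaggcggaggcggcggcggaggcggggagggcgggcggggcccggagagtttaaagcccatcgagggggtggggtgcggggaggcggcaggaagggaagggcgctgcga
Grb10, downstream start: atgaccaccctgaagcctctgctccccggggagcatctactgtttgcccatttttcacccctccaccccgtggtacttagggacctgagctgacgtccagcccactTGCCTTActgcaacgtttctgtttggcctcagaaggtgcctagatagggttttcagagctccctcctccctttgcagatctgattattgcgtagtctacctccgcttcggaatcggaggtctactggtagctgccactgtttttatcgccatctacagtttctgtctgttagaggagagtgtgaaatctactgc
Nnat: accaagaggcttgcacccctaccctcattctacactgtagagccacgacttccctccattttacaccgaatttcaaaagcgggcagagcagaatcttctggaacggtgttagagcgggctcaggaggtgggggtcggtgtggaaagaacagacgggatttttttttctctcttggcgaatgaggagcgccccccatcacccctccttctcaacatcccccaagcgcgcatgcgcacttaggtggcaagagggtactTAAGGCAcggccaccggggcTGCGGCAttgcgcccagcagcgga
Peg12: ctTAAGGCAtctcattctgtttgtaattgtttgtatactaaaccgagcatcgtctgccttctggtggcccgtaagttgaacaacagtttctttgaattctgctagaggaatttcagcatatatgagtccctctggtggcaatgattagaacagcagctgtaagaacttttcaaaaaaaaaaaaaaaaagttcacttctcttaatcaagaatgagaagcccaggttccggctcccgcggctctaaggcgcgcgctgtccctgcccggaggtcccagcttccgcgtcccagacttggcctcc

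The upstream Grb10 window held 0 matches, the downstream window 1, the Nnat window 2 and the Peg12 window 1. A promoter window was found for 36 of the 40 genes, 53 windows in all. Of these windows, 22 (41.5%) held TNNGGCA on either strand, beside 40% of 32851 windows of all genes. The letters TGCCGC, which ZFP57 recognises when methylated, occurred in 12 windows (22.6%), beside 11.6% of all windows, and the upstream Grb10 window and the Nnat window held 1 each. The reverse complement GCGGCA ends in GGCA, so both searches can match the same bases. Some windows overlap, such as the Mest windows starting at 30737800 and 30737803, which were both counted among the 12. A match describes the letters only, and the base composition of the windows was not compared.

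Nnat encodes neuronatin, a small membrane protein of the endoplasmic reticulum, is expressed from the paternal allele and lies in an intron of Blcap. It had 2620 and 3180 normalized counts in WT, 1346 and 1200 in C54Y, with 430 and 826.1 in KO. The libraries of the 3 genotypes did not overlap. Nnat fell by 2.27 ± 0.24 on the log2 scale in KO (adjusted p = 0.000914). Its difference in C54Y, -1.18 ± 0.24, missed the threshold (adjusted p = 0.0566), as did KO against C54Y at -1.09 (adjusted p = 0.0976). The host gene Blcap, a small membrane protein, stood at -0.26 in KO and -0.23 in C54Y (adjusted p = 0.335 and 0.684), with 820.9 to 1077 normalized counts in all 6 libraries. Ctnnbl1, on the other side of Nnat, stood at -0.01 in both mutants.

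Peg10, a paternally expressed gag-pol gene from a retrotransposon that the placenta needs, fell in both mutants. Normalized counts were 25083 and 16885 in WT, 15697 and 8524 in C54Y, with 13768 and 7174 in KO. Every mutant library lay below both WT libraries. KO differed from WT by -1.05 ± 0.13 (adjusted p = 0.00188) and C54Y by -0.83 ± 0.13 (adjusted p = 0.0216), while KO against C54Y was not called (-0.22, adjusted p = 0.473). The C54Y call was lost without WT replicate 2 (adjusted p = 0.121) or C54Y replicate 2 (adjusted p = 0.354). Sgce, a paternally expressed sarcoglycan gene that starts beside Peg10 on the opposite strand, went from 501.2 and 319.1 in WT to 159 and 127.3 in KO (-1.48 ± 0.23, adjusted p = 0.00419). Pon2, a lactonase gene of the same cluster, fell in KO as well (-1.32 ± 0.25, adjusted p = 0.0102). In C54Y, Sgce stood at -0.76 and Pon2 at -1.02 (adjusted p = 0.184 and 0.107). Calcr, Ppp1r9a and Asb4, the maternally expressed genes of the cluster among the 40, were not called between genotypes. Calcr, the calcitonin receptor, had 6.36 to 23.2 normalized counts and stood at -1.14 in KO (adjusted p = 0.109). Ppp1r9a, an actin-binding regulator of protein phosphatase 1, stood at -0.26 (adjusted p = 0.404). Asb4, a ubiquitin ligase subunit, had 12.7 and 3.86 normalized counts in WT, 14.3 and 0 in C54Y, with 9.56 and 5.09 in KO.

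Mest, a paternally expressed enzyme gene of the alpha/beta hydrolase fold on the same chromosome, also fell in both mutants. It had 3598 and 1839 normalized counts in WT, 1713 and 1048 in C54Y, with 2024 and 833.7 in KO. WT replicate 2 lay below KO replicate 1, so WT and KO overlapped, although KO was lower within each replicate. KO differed from WT by -0.98 ± 0.18 (adjusted p = 0.00745) and C54Y by -0.94 ± 0.18 (adjusted p = 0.0411). Leaving out either C54Y library (adjusted p = 0.322 and 0.101) or WT replicate 2 (adjusted p = 0.11) ended the C54Y call. Its neighbours Copg2 (-0.07, adjusted p = 0.771) and Cep41 (0.48, adjusted p = 0.244) were not called in KO.

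**Figure D2:**
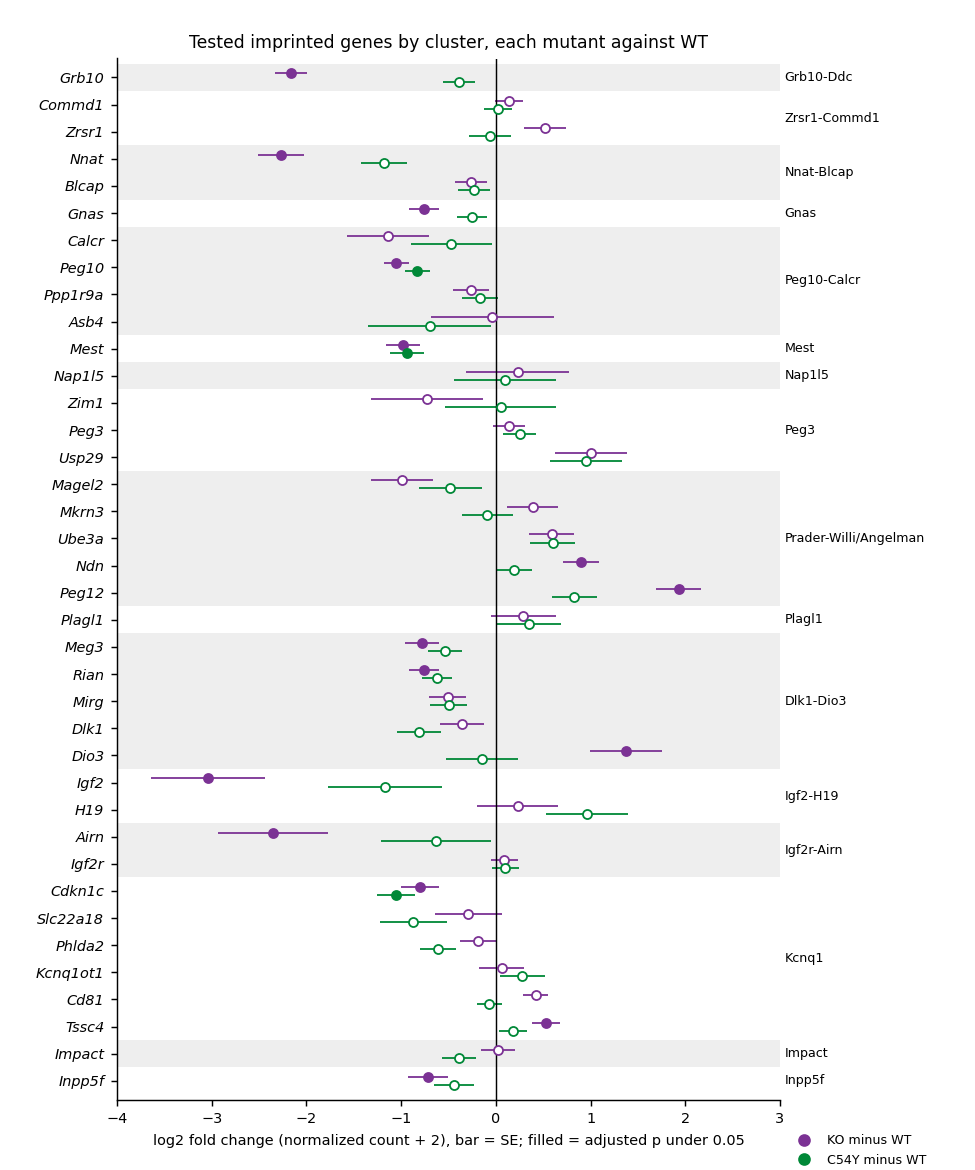
Log2 fold change of normalized count plus 2 (bar, SE) of the 38 tested imprinted genes, for KO minus WT and C54Y minus WT, ordered by cluster, with filled points at an adjusted p under 0.05. Grb10, Nnat, Igf2 and Airn lie beyond -2 in KO, and none of the filled C54Y points is above 0.

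In the Igf2-H19 cluster, Igf2 is a paternally expressed growth factor and H19 a maternally expressed noncoding RNA. Igf2 had 3255 and 2355 normalized counts in WT, 1074 and 1407 in C54Y, with 146.8 and 763.7 in KO. The genotypes did not overlap, and the lowest value was that of KO replicate 1. Igf2 fell by 3.04 ± 0.60 in KO (adjusted p = 0.0213), with -4.45 within replicate 1 and -1.62 within replicate 2. Leaving out WT replicate 2 (adjusted p = 0.0658) or either C54Y library (adjusted p = 0.446 and 0.408) ended the call, as did a fit on KO and WT alone (adjusted p = 0.432). In C54Y Igf2 stood at -1.17 (adjusted p = 0.526). Igf2os, which overlaps Igf2 on the other strand, was called down in KO (-1.75, adjusted p = 0.0296), but the strand setting of the counting was not given, so reads of the pair cannot be told apart. H19 had 2566 and 4832 normalized counts in WT, 3147 and 15010 in C54Y, with 1439 and 11865 in KO. KO was below WT in replicate 1 (-0.83) and above it in replicate 2 (1.30), and neither KO (0.23, adjusted p = 0.764) nor C54Y (0.96, adjusted p = 0.439) was called.

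Marker levels of other cell types are given here beside these values. The fibroblast list summed to 22853 in WT, 17624 in C54Y and 8114 in KO within replicate 1, and to 46893, 54267 and 49700 within replicate 2. Of its 22 tested genes 1 was called down in KO and 0 up, with a median log2 fold change of -0.46 (20 below 0 and 2 above). Tagln, which was not called in KO (adjusted p = 0.332), had 9022 normalized counts in WT and 392.6 in KO of replicate 1. In replicate 2 Tagln had 8172 and 6915. Primitive endoderm genes summed to 68667 and 42827 in WT, 33763 and 31822 in C54Y, with 25916 and 32921 in KO. Of 15 tested, 12 fell in KO and 8 in C54Y, with 0 up in either. Trophectoderm genes summed to 31466 and 22533 in WT and 5589 and 14655 in KO, with 3 down and 1 up of 9. Called or not, 6 stood below 0 and 3 above (Elf5, Tfap2c and Eomes). Tfap2c, the gene called up (0.74 ± 0.18, adjusted p = 0.0244), had 3317 and 4057 normalized counts in WT and 4349 and 8594 in KO. In WT most of each trophectoderm sum came from Krt8 and Krt18. Krt8 had 15325 normalized counts in WT and 469.1 in KO of replicate 1, and 8319 and 2371 in replicate 2. Krt18 had 11525 and 338.8 in replicate 1, and 8018 and 2157 in replicate 2. Neither Krt8 nor Krt18 was called in KO (adjusted p = 0.09 and 0.0768). Neural genes had 3 down and 2 up of 11 in KO, and stem cell markers 9 up and 0 down of 14. Over all tested genes 8.9% were called up and 7.41% down in KO, and 0.962% and 0.399% in C54Y. In these bulk libraries fewer cells of a type and less RNA per cell cannot be told apart, and the part of other cell types in the imprinted gene levels was not tested.

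**Figure D3:**
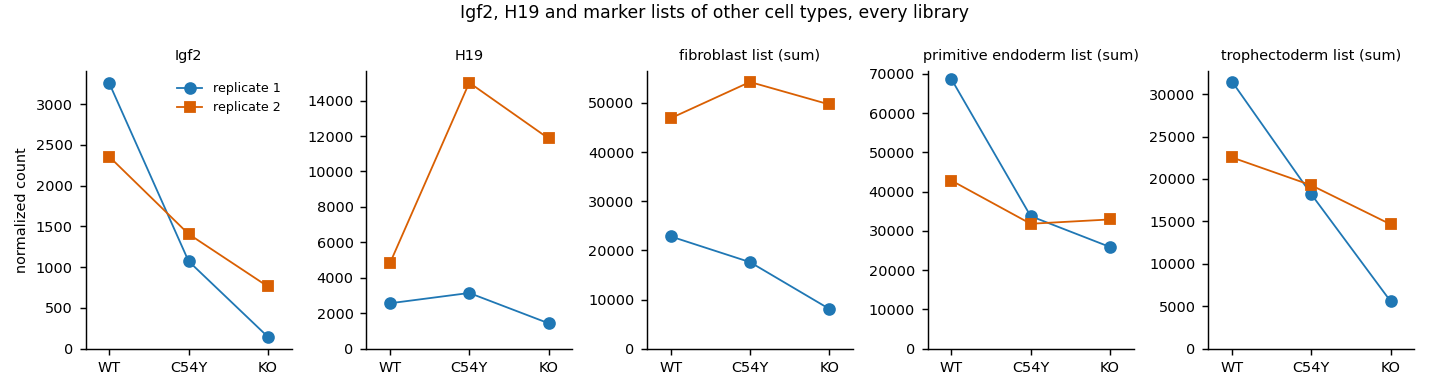
Normalized counts of Igf2 and H19 and summed normalized counts of 3 marker lists by genotype, 1 point per library, lines joining libraries of 1 replicate, linear axes from 0. Igf2 and the primitive endoderm and trophectoderm sums are lower in KO than in WT within both replicates. In WT most of the trophectoderm sum comes from Krt8 and Krt18. The fibroblast sum is 22853 in WT and 8114 in KO within replicate 1, and 46893 and 49700 within replicate 2.

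The Kcnq1 cluster holds maternally expressed genes silenced in cis by the paternal noncoding RNA Kcnq1ot1. Cdkn1c, which encodes the kinase inhibitor p57, had 927 and 2073 normalized counts in WT, 510 and 871.6 in C54Y, with 483 and 1317 in KO. Both C54Y libraries lay below both WT libraries, and the KO and WT libraries overlapped. Cdkn1c differed from WT by -1.05 ± 0.20 in C54Y (adjusted p = 0.0411) and by -0.80 ± 0.20 in KO (adjusted p = 0.027). The C54Y call was lost without WT replicate 2 (adjusted p = 0.11) or C54Y replicate 2 (adjusted p = 0.918). Leaving out either WT library ended the KO call (adjusted p = 0.0608 and 0.115). Tssc4, which helps assemble the spliceosome, had 832.9 and 2023 normalized counts in WT, 913.2 and 2371 in C54Y, with 1243 and 2822 in KO. It was higher in KO within each replicate, though the replicates overlapped across genotypes, and rose there (0.53 ± 0.15, adjusted p = 0.0454). That call was lost with edgeR (adjusted p = 0.0807), with TMM scaling factors in limma (adjusted p = 0.0771), without a filter (adjusted p = 0.058), in a fit on KO and WT alone (adjusted p = 0.126) and without either WT or either C54Y library (adjusted p from 0.117 to 0.271). The tetraspanin gene Cd81 next to it had 8901 and 8935 normalized counts in WT and 10806 and 13245 in KO, a difference of 0.42 that missed the threshold (adjusted p = 0.0583).

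Phlda2, Slc22a18 and Kcnq1ot1, the remaining chosen genes of the cluster, were not called against WT. Tspan32, a gene of the cluster outside that choice, was called up in KO (2.21 ± 0.32, adjusted p = 0.00342). Phlda2, a growth-restraining gene of the placenta, had 1115 and 3454 normalized counts in WT, 926.8 and 1790 in C54Y, with 1183 and 2502 in KO. It stood at -0.61 in C54Y and -0.19 in KO (adjusted p = 0.208 and 0.547). Slc22a18, a transporter gene, stood at -0.87 and -0.29 (adjusted p = 0.349 and 0.625). Kcnq1ot1 itself had 3686 and 311.4 normalized counts in WT, 4679 and 361.1 in C54Y, with 5486 and 227.8 in KO. Its replicates were over 10-fold apart in each genotype, and the genotype differences of 0.06 (KO) and 0.28 (C54Y) were not called (adjusted p = 0.892 and 0.751).

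In the Igf2r cluster, the paternal noncoding RNA Airn runs antisense through Igf2r and silences it in cis. Airn was scarce, with 23.2 and 7.72 normalized counts in WT, 12.2 and 5.2 in C54Y, with 0.869 and 1.27 in KO, the last being 1 read in each library. The KO libraries lay below all others, and the log2 fold change in KO was -2.35 ± 0.58 (adjusted p = 0.0265). With 37 reads in WT and 2 in KO, the WT to KO ratio was 16.9 (exact 95% interval 4.37 to 145, counting error only), and the call was lost without WT replicate 1 (adjusted p = 0.116) or KO replicate 1 (adjusted p = 0.108) and with DESeq2 (adjusted p = 0.0738). In C54Y Airn stood at -0.63 (adjusted p = 0.773). Igf2r, the receptor that clears IGF2, had 5561 and 2617 normalized counts in WT, 5880 and 2837 in C54Y, with 5617 and 2933 in KO. Its differences from WT were 0.09 ± 0.14 in KO and 0.10 ± 0.14 in C54Y (adjusted p = 0.703 and 0.868). Slc22a3, an organic cation transporter gene expressed from the maternal allele in placenta, had 2.99 and 5.15 normalized counts in WT, 1.36 and 1.3 in C54Y, with 0 in both KO libraries, and was not tested.

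Genes of the Prader-Willi/Angelman region are paternally expressed except Ube3a, a ubiquitin ligase gene expressed from the maternal allele in neurons. Peg12, a retrogene of the Frat family whose proteins bind the kinase GSK3, had 103.1 and 191.7 normalized counts in WT, 176.8 and 359.8 in C54Y, with 470.8 and 619.9 in KO. Both KO libraries lay above all others. Peg12 rose by 1.93 ± 0.24 in KO (adjusted p = 0.0018) and stood at 0.83 in C54Y (adjusted p = 0.167). Its relatives Frat1 (0.51, adjusted p = 0.249) and Frat2 (0.06, adjusted p = 0.879), which could share reads with it, were not called. Ndn, which encodes the growth suppressor necdin, had 463.9 and 1132 normalized counts in WT, 481.4 and 1413 in C54Y, with 971.1 and 1880 in KO. It rose by 0.90 ± 0.19 in KO (adjusted p = 0.0147) and stood at 0.19 in C54Y (adjusted p = 0.8).

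Magel2, a MAGE family gene between Ndn and Mkrn3, had 107.6 and 99.1 normalized counts in WT, 98.6 and 54.6 in C54Y, with 48.6 and 53.5 in KO, a difference of -0.99 in KO that was not called (adjusted p = 0.0753). Mkrn3, a makorin ubiquitin ligase gene, had 248.7 and 198.2 normalized counts in WT, 253.6 and 171.5 in C54Y, with 447.4 and 190.9 in KO. It stood at 0.39 in KO, with 0.84 in replicate 1 and -0.05 in replicate 2 (adjusted p = 0.364). Ube3a had 1526 and 69.5 normalized counts in WT, 1804 and 136.4 in C54Y, with 2329 and 104.4 in KO, and its differences of 0.59 and 0.60 were not called (adjusted p = 0.129 and 0.345). Snrpn, a spliceosomal protein gene at the imprinting centre, had 1.49 and 6.43 normalized counts in WT, 5.44 and 3.9 in C54Y, with 4.34 and 8.91 in KO. How reads of overlapping genes were counted is not given in the sources used here.

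The Dlk1-Dio3 cluster makes noncoding RNAs from the maternal chromosome (Meg3, the small nucleolar RNA host Rian and the microRNA host Mirg) and proteins from the paternal one. Meg3 had 6350 and 3841 normalized counts in WT, 5512 and 2094 in C54Y, with 4259 and 1930 in KO. Rian had 8463 and 3770 in WT, 6356 and 2124 in C54Y, with 6032 and 1843 in KO. Both were highest in WT within each replicate, while genotypes overlapped across replicates. Meg3 fell by 0.78 ± 0.18 (adjusted p = 0.0187) and Rian by 0.76 ± 0.16 (adjusted p = 0.0158) in KO. Both calls were lost without WT replicate 2 (adjusted p = 0.219 and 0.192). Mirg, with 498.2 and 876.3 normalized counts in WT, 415.5 and 520.9 in C54Y, with 381.3 and 561.3 in KO, stood at -0.51 (adjusted p = 0.119). In C54Y the 3 RNAs stood at -0.54, -0.62 and -0.50 (adjusted p = 0.226, 0.13 and 0.343).

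Of the protein-coding genes of that cluster, Dlk1, a Notch ligand-like membrane protein, had 177 and 446.5 normalized counts in WT, 90.4 and 279.3 in C54Y, with 126 and 379.3 in KO. It stood at -0.81 in C54Y and -0.36 in KO, with neither called (adjusted p = 0.162 and 0.335). Dio3, which encodes a deiodinase that inactivates thyroid hormone, had 25.4 and 23.2 in WT, 17 and 27.3 in C54Y, with 73.8 and 58.6 in KO. Both KO libraries lay above the other 4. Dio3 rose by 1.37 ± 0.38 in KO (adjusted p = 0.0417). Leaving out either WT library (adjusted p = 0.0569 and 0.152) or KO replicate 1 (adjusted p = 0.126) ended the call, as did DESeq2 (adjusted p = 0.087) and TMM factors (adjusted p = 0.051).

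Members of the Peg3 cluster were not called between genotypes. Peg3, a paternally expressed zinc finger gene, had 10839, 10454 and 10236 normalized counts in WT, C54Y and KO of replicate 1, and 1046, 1535 and 1348 in those of replicate 2. Its differences were 0.14 ± 0.17 in KO and 0.25 ± 0.17 in C54Y (adjusted p = 0.622 and 0.656), far smaller than the gap between replicates. Usp29, a ubiquitin protease family gene that starts beside Peg3, had 67.2 and 18 normalized counts in WT, 82.3 and 59.8 in C54Y, with 92.9 and 56 in KO, with 1.0 as its difference in KO (adjusted p = 0.115). The maternally expressed zinc finger gene Zim1 had 27.6 and 5.15 in WT, 47.6 and 2.6 in C54Y, with 36.5 and 0 in KO (-0.73 in KO, adjusted p = 0.444).

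Of the remaining genes, Gnas, the stimulatory G protein subunit, had 11136 and 14404 normalized counts in WT, 8937 and 12649 in C54Y, with 5360 and 10388 in KO. It fell by 0.76 ± 0.16 in KO (adjusted p = 0.0137), and each KO library was below both WT libraries. The table has 1 value for all Gnas isoforms, so imprinted and biallelic ones were not separated. Inpp5f, an inositol phosphatase gene with a paternally expressed variant in brain, had 885.9 and 428.5 normalized counts in WT, 748 and 276.7 in C54Y, with 631.5 and 218.9 in KO. It was lowest in KO within each replicate and fell there (-0.72 ± 0.21, adjusted p = 0.0441). That call was lost without either WT library (adjusted p = 0.061 and 0.406) or either C54Y library (adjusted p = 0.0819 and 0.0722), without a filter (adjusted p = 0.0531) and in a fit on KO and WT alone (adjusted p = 0.0746). The zinc finger gene Plagl1 had 565.5 and 74.6 normalized counts in WT, 445.4 and 155.9 in C54Y, with 656.7 and 96.7 in KO (0.29 in KO, adjusted p = 0.608). Impact, a regulator of the translation kinase GCN2, had 6926 and 1172 in WT, 4649 and 1018 in C54Y, with 7919 and 1051 in KO (0.02, adjusted p = 0.962). The splicing factor retrogene Zrsr1 had 865 and 562.3 normalized counts in WT, 718.7 and 623.5 in C54Y, with 1458 and 687.3 in KO, a difference of 0.52 in KO that was not called (adjusted p = 0.15). Its X-linked relative Zrsr2, which could share reads with it, rose by 0.65 (adjusted p = 0.0409). Commd1, the host gene of Zrsr1, had 1304 and 3298 normalized counts in WT, 1308 and 3379 in C54Y, with 1515 and 3440 in KO (0.14 in KO, adjusted p = 0.565). The retrogene Nap1l5 had 26.9 and 11.6 in WT, 21.8 and 16.9 in C54Y, with 53.9 and 7.64 in KO (0.23, adjusted p = 0.817).

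Arranged by the allele that is usually expressed, 3 of 19 tested paternal genes rose and 6 fell in KO, Airn among the falls. Of 18 maternal genes, 1 rose and 4 fell, beside 8.9% up and 7.41% down over all tested genes. For KO the median log2 fold change was 0.06 over paternal and -0.26 over maternal genes, with ranges of -3.04 to 1.93 and -2.16 to 0.59. In C54Y 2 paternal genes and 1 maternal gene fell, beside 0.962% up and 0.399% down over all tested genes. The C54Y medians were -0.15 over paternal and -0.31 over maternal genes. Called or not, 11 paternal genes had a value above 0 in KO and 8 below, and 6 maternal genes above and 12 below. Of 18 tested genes next to the called imprinted genes that are not members, 3 were called up (Cobl, 1700042O10Rik and Mcmbp) in KO. Another 3 were called down (Sgce, Igf2os and Bag3), beside 8.9% up and 7.41% down over all tested genes. These neighbours are not all outside imprinted genes. Sgce, Rtl1 and Copg2 are on the list of further imprinted genes below, and Igf2os overlaps Igf2.

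Per kilobase of exon, the highest mean levels in WT were those of Peg10 (3150 normalized counts per kb), Cd81 (3100), Phlda2 (2040), Nnat (1590), H19 (1500) and Gnas (1140). Grb10 stood at 751 in WT, 591 in C54Y and 174 in KO on this scale. Peg12 stood at 55.8 in WT and 207 in KO. Of the 39 neighbouring pairs in the WT order of all 40 genes, 36 had overlapping WT libraries, and 3 did not (Cd81 and Phlda2, Zrsr1 and Mirg, Nap1l5 and Calcr).

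More imprinted genes were called between the replicates than between any pair of genotypes. Between replicate 2 and replicate 1, 19 imprinted genes were lower and 10 higher in replicate 2, together 76.3% of 38, beside 64.9% of all tested genes (32% higher and 32.8% lower). Ube3a had the largest difference (-4.19 ± 0.19 on the log2 scale, adjusted p = 6.36e-07), followed by Kcnq1ot1 (-3.94 ± 0.20, adjusted p = 8.22e-07), Zim1 (-3.25 ± 0.48, adjusted p = 0.000321), Ppp1r9a (-3.06 ± 0.16, adjusted p = 8.61e-07), Peg3 (-3.02 ± 0.14, adjusted p = 6.36e-07), Impact (-2.55 ± 0.15, adjusted p = 1.49e-06) and Plagl1 (-2.38 ± 0.28, adjusted p = 7.06e-05). For Ppp1r9a these were 1555, 1514 and 1433 normalized counts in replicate 1 against 209.7, 170.2 and 159.1 in replicate 2, in the order WT, C54Y and KO. H19 (2.07 ± 0.35, adjusted p = 0.00182), Dlk1 (1.5 ± 0.19, adjusted p = 0.00012), Commd1 (1.30 ± 0.12, adjusted p = 1.66e-05), Tssc4 (1.28 ± 0.12, adjusted p = 2.31e-05), Ndn (1.26 ± 0.15, adjusted p = 9.92e-05), Phlda2 (1.22 ± 0.16, adjusted p = 0.000128) and Cdkn1c (1.12 ± 0.16, adjusted p = 0.000265) were higher in replicate 2. The H19 call was lost when any of the 4 mutant libraries was left out (adjusted p from 0.145 to 0.262). Within the Dlk1-Dio3 cluster, Rian (-1.49 ± 0.13) and Meg3 (-1.09 ± 0.14) were lower and Dlk1 and Mirg (0.56 ± 0.16) higher in replicate 2 (adjusted p = 1.5e-05, 0.00016 and, for Mirg, 0.0137).

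Further genes were called between the replicates. Asb4 (-1.69 ± 0.53, adjusted p = 0.0204), Inpp5f (-1.33 ± 0.17, adjusted p = 0.00012), Nap1l5 (-1.32 ± 0.44, adjusted p = 0.0264), Igf2r (-1.02 ± 0.11, adjusted p = 4.52e-05), Mest (-0.98 ± 0.14, adjusted p = 0.000289), Usp29 (-0.98 ± 0.31, adjusted p = 0.0213), Peg10 (-0.80 ± 0.11, adjusted p = 0.000198), Mkrn3 (-0.70 ± 0.22, adjusted p = 0.0201), Grb10 (-0.69 ± 0.14, adjusted p = 0.00172) and Zrsr1 (-0.64 ± 0.18, adjusted p = 0.0128) were lower in replicate 2. Peg12 (0.76 ± 0.20, adjusted p = 0.00781) and Gnas (0.61 ± 0.13, adjusted p = 0.00275) were higher. Zim1 and Asb4 reached 10 normalized counts in replicate 1 libraries only, so they were tested because of the replicate where they are high, and their differences are a description. Of these calls and that of Mirg, some rested on single libraries. Leaving out either C54Y library ended the calls of Asb4 (adjusted p = 0.183 and 0.144) and Peg12 (adjusted p = 0.0769 and 0.0884). Leaving out either KO library ended those of Nap1l5 (adjusted p = 0.183 and 0.137) and Mkrn3 (adjusted p = 0.0589 and 0.0508). Leaving out either WT library ended those of Usp29 (adjusted p = 0.189 and 0.15) and Mirg (adjusted p = 0.128 and 0.134). Across the 38 imprinted genes, the replicate difference and summed exon length had a Spearman correlation of -0.59, and across 14579 tested genes with a length one of -0.46. This is a description across genes of the same 6 libraries, and genes are not independent replicates. For the difference of KO from WT the same correlations were -0.11 and -0.07. What separates the replicates was not tested.

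**Figure D4:**
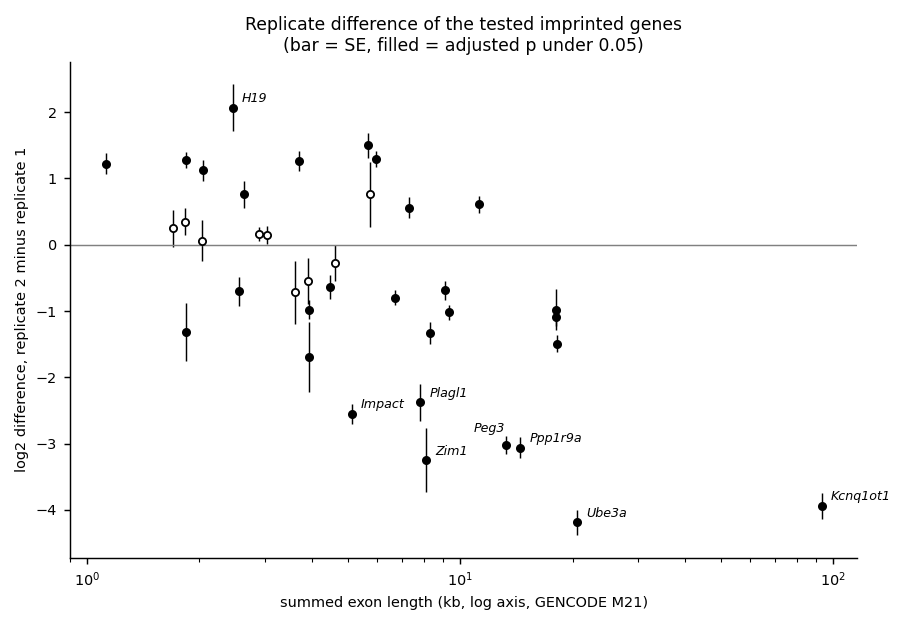
Log2 difference of replicate 2 minus replicate 1 (bar, SE, over the 3 genotypes) of the 38 tested imprinted genes against summed exon length in kb (log axis), with filled points at an adjusted p under 0.05. Ube3a, Kcnq1ot1, Zim1, Ppp1r9a and Peg3 lie at -3.02 or below at lengths of 8.09 to 93.1 kb, and H19 lies highest at 2.07.

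Genes that write, keep or erase imprinting marks were read from a list of 28, all tested. In KO 5 rose and 2 fell, or 25% of the list beside 16.3% of all tested genes, and in C54Y only Zfp42 (Rex1), a zinc finger gene of naive stem cells, was called (2.44 ± 0.18, adjusted p = 0.000877). In KO Zfp42 rose by 2.98, Zfp57 by 0.68 ± 0.16 (adjusted p = 0.0216), its partner Trim28 by 0.49, Uhrf1, which brings DNMT1 to replicating DNA, by 0.59 ± 0.12 (adjusted p = 0.0132), and the dioxygenase gene Tet2 by 1.26 ± 0.32 (adjusted p = 0.028). The de novo methyltransferase genes Dnmt3a (-0.93 ± 0.16, adjusted p = 0.0063) and Dnmt3b (-1.32) fell. Dnmt3b also was lower in KO than in C54Y (-0.98 ± 0.14, adjusted p = 0.0455). The list's median in KO was 0.15, beside 0.03 for all genes. Methylation of the control regions was not measured in these libraries.

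Of 26 further imprinted genes, 22 had a row and 18 were tested, of which 4 rose and 2 fell in KO (33.3%, beside 16.3% of all tested genes), the falls being Sgce and Pon2. The rises were Tspan32, a tetraspanin gene of the Kcnq1 cluster (2.21 ± 0.32, adjusted p = 0.00342), Ddc, the noncoding RNA Peg13 (1.53 ± 0.30, adjusted p = 0.0117) and the amino acid transporter gene Slc38a4 (0.65 ± 0.15, adjusted p = 0.0183). Of 12 genes of the insulin and IGF pathway and of the retrogenes' parent genes, 2 rose and 2 fell in KO (33.3%, beside 16.3% of all tested genes). Igf1r (-0.99 ± 0.20, adjusted p = 0.0121) and Irs1 (-2.06 ± 0.54, adjusted p = 0.0341) fell. Irs1 had 367.5 and 73.3 normalized counts in WT and 35.6 and 40.7 in KO. Insr (-0.43, adjusted p = 0.131), Irs2 (-1.27, adjusted p = 0.0576) and Igf1 (0.21, adjusted p = 0.81) were not called. The RNA-binding protein gene Igf2bp2 (0.88 ± 0.15, adjusted p = 0.00567) and Zrsr2 rose.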

How the data were processed

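The authors deposited 1 table whose signal values are normalized counts of each gene in the 6 libraries. Per the submitters' processing notes the tools were CASAVA, Trimmomatic, TopHat2 2.1.0, HTSeq and DESeq2 with build mm9; strand setting and annotation are not given in the sources used here. Dividing a library's values by the lowest value above 0 gave whole reads for 100% of values (tolerance 1e-06), and edgeR on these reads called 2427 genes between KO and WT. Unused sample columns numbered 0.

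Members and lists were chosen with earlier results of these data known. limma 3.58.1 (robust trend, R 4.3.3) was fitted to log2(normalized count + 2) of 15287 genes with at least 10 in at least 2 libraries, over all 6 libraries, with genotype and replicate block. P-values were adjusted by Benjamini-Hochberg over all genes at 0.05. Fold changes on this scale understate those of low genes. The limma fit with the replicate block was also run on simulated counts with set fold changes. Other steps were not tested in this way.

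Replicate numbers pair the samples: deviations from group means correlated at 0.907 (WT, C54Y), 0.869 (WT, KO) and 0.895 (C54Y, KO).

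All 40 genes are named; values in every library are given for each gene called in any comparison and for a list fixed by name, which adds Snrpn. Neighbours are the nearest tested genes in RefSeq order (GRCm38.p6). Lengths are GENCODE M21 exon unions. Alternatives used edgeR 4.0.16 (count test on recovered reads), DESeq2 1.42.0, other pseudocounts, filters and scaling, and left out each library.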

Additional observations from a re-analysis of the deposited data

Results flagged for a closer look

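Some genes went opposite ways in the replicates by over 1.5-fold each way. H19 in KO against WT differed by -0.83 on the log2 scale within replicate 1 and by 1.3 within replicate 2. Zim1 in C54Y against WT differed by 0.74 and -0.64, at counts of 2.6 to 47.6. Nap1l5 in KO against C54Y differed by 1.23 and -0.97, at counts of 7.64 to 53.9. With 1 library per genotype and replicate, the difference between replicates was not tested.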

How the results depend on the processing

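Counts of imprinted genes called were 15 (KO against WT), 3 (C54Y against WT), 1 (KO against C54Y) and 29 (replicate 2 against replicate 1) with the replicate block. Over all tested genes the counts with the block were 2494, 208, 29 and 9917. Without the replicate block they were 0, 0, 0 and 20 for the imprinted genes and 0, 0, 0 and 8127 for all tested genes. For KO against WT, edgeR, DESeq2, TMM scaling, both other pseudocounts, both other filters and a fit on the 2 genotypes alone gave 12 to 15 calls, and leaving out 1 library gave 8 to 20. For C54Y against WT, DESeq2 gave 5, the fit on the 2 genotypes 14, and leaving out 1 library 0 to 15. For KO against C54Y these were 4, 6 and 1 to 12. Over all tested genes DESeq2 called 479 and the fit on the 2 genotypes 1743 for C54Y against WT. For KO against C54Y these all-gene counts were 452 and 677. A genotype left with 1 library is assumed to vary like the others. The replicate comparison kept 26 to 29 calls under each alternative that had the block. No called gene changed sign under any alternative. In KO, Grb10, Nnat, Peg10, Peg12, Mest, Gnas and Ndn lost their calls under no alternative other than the fit without the block. TMM factors shifted the median of all genes by -0.09 (KO against WT) and by -0.1 (replicate 2 against replicate 1). Airn, Calcr, Asb4, Zim1 and Nap1l5 had under 10 normalized counts in 1 or more libraries, which limits what could be detected for them.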
